A study of Mus musculus with 12 samples.

Results

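The transcripts of 10 endothelial marker genes (Cdh5, Kdr, Pecam1, Tie1, Tek, Flt1, Emcn, Ptprb, Eng and Vwf) were followed in mouse embryonic fibroblasts (MEFs) that carried factors used to drive fibroblasts toward a cardiac fate. The genes were taken by name, and every probe set that the platform annotation assigns to them was kept. This gave 14 of the 22626 probe sets tested and 10 of the 12393 genes measured. The cells were of the C57BL/6 strain. All 12 cultures were first transduced with a lentivirus for M2rtTA, the transactivator that doxycycline activates. TF group 1 also received GATA4, TBX5 and MEF2C. TF group 2 received these 3 factors with Mesp1 and SMARCD3, and TF group 3 received those 5 with MYOCD and SRF. The negative control carried M2rtTA alone. Each group had 3 biological replicates, and every culture, the negative control included, was kept for 7 days in doxycycline, valproic acid and additional serum. The factors were encoded by human cDNAs except Mesp1, which was of mouse origin. RNA came from the whole culture without sorting, so a rare cell type contributes only its share of the RNA, and fewer cells of a type cannot be told apart from less RNA per cell.

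Endothelial cells line the blood vessels and are recognised by a small set of surface proteins. VEGF receptors (Kdr and Flt1) and angiopoietin receptors (Tek and its partner Tie1) receive the main growth signals of the vessel wall. Junction proteins such as VE-cadherin (Cdh5) and Pecam1 hold neighbouring cells together, and the phosphatase Ptprb acts on VE-cadherin and Tek. Early cardiac progenitors can form endothelium as well as heart muscle, and GATA, MEF2 and Mesp1 proteins act in that lineage.

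Markers of the labelled cell type were read on every array. All 10 fibroblast genes listed for this purpose, among them vimentin and the collagens, gave a signal of at least 32 on all 12 arrays. So did 4 of 5 platelet genes and 6 of 9 macrophage and leukocyte genes, so this level does not tell cell types apart. A signal of 32 (5 on the log2 scale) served as the floor for dim probe sets. Median signals ran from 131.5 to 149.7 per array, and between 20.4% and 24.2% of the probe sets lay below the floor. Probe sets for a bacterial transcript that is absent from mouse cells read between 2.98 and 29.2. The poly-A RNA spikes read 0.81 higher (mean log2) on the 9 TF arrays compared with the 3 control arrays, and 18S ribosomal RNA 1.19 higher. The part of this difference in the results below was not tested. Where a change called on either scale turned round with the scaling, this is marked.

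Of the 10 markers, 4 (Flt1, Eng, Ptprb and Emcn) lay at or above the floor on all 12 arrays. Another 3 (Tek, Kdr and Cdh5) crossed it from array to array, and Pecam1, Tie1 and Vwf stayed below it on every array. A gene was called changed at an adjusted p below 0.05 (limma, Benjamini-Hochberg over 22626 probe sets) together with a fold change above 1.5, read from its brightest probe set. In TF group 1, 2 of 10 markers were called (Tek higher, Flt1 lower), where 24.0% of all genes were called in either direction. In TF group 2, 2 markers were called (Flt1 and Ptprb, both lower), against 25.4% of all genes. In TF group 3, 2 markers were called (Ptprb higher, Flt1 lower), against 24.5% of all genes. These shares lay near the background, and all 3 comparisons rest on the same 3 control arrays. The median log2 change of the 10 markers was 0.00 in TF group 1, -0.01 in TF group 2 and -0.02 in TF group 3, while the median over all genes was 0.07, 0.06 and 0.05. At an unadjusted p below 0.05, without the fold threshold, 4, 2 and 3 of 10 markers passed. At an adjusted p below 0.05 without that threshold, 39.8%, 40.3% and 39.8% of all probe sets passed in TF groups 1, 2 and 3. The all-probe-set share at the unadjusted p cannot be smaller.

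**Figure D1:**
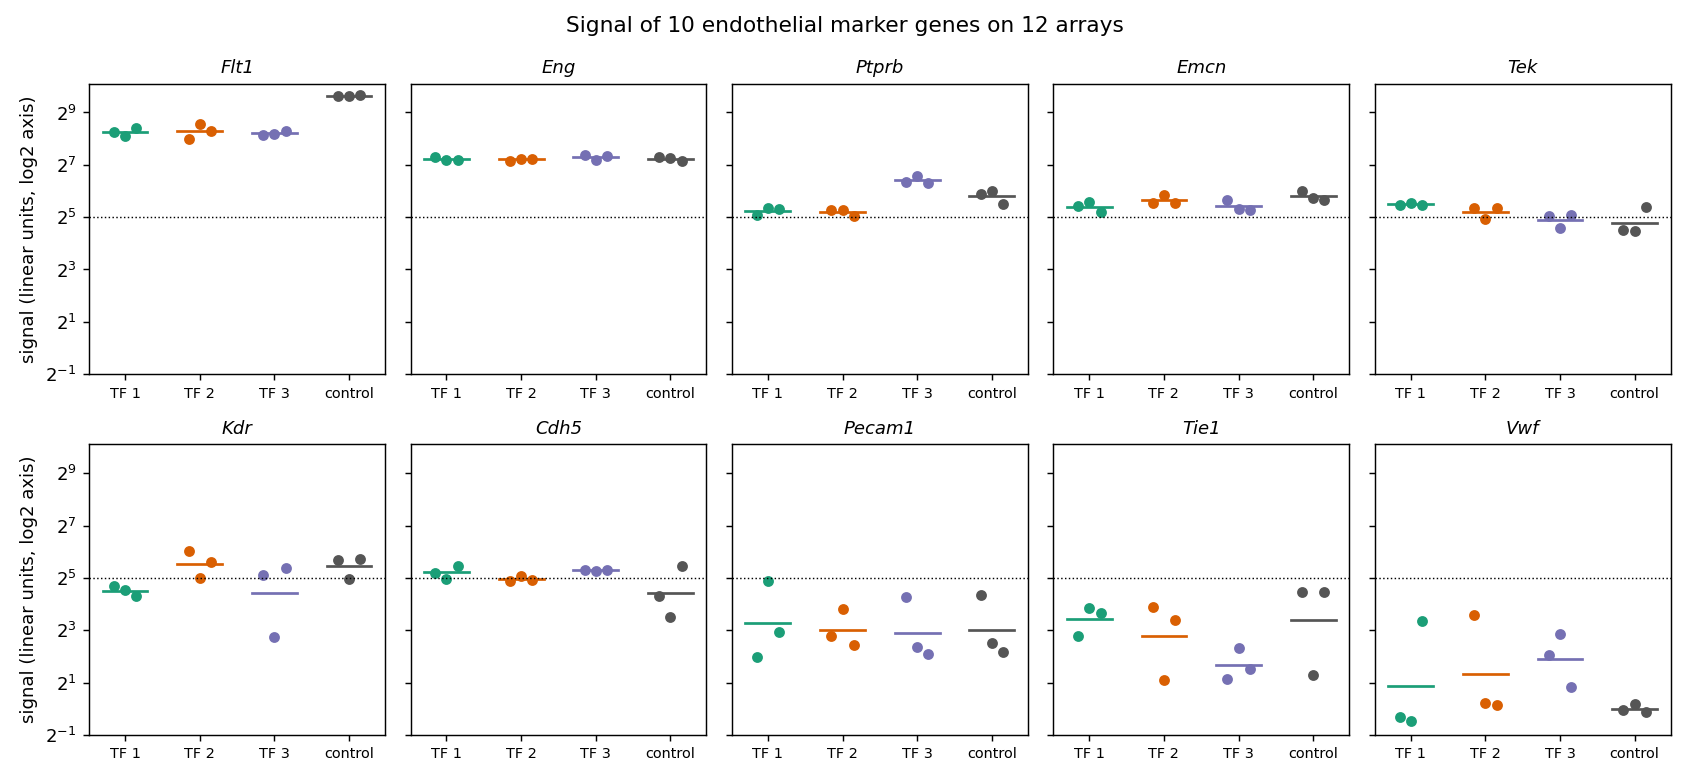
Deposited signal (linear units, log2 axis) of the probe set that stands for each of the 10 markers. Points are the 3 replicates of TF group 1, TF group 2, TF group 3 and the negative control, bars are geometric means and the dotted line is the floor of 32; Flt1 lay between 256 and 376 on the TF arrays and between 793 and 808 on the control arrays, while Pecam1, Tie1 and Vwf lay below the floor on all 12 arrays.

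The sequence around the transcription start is shown for the marker that fell in all TF groups, Flt1, and for Eng, whose groups overlapped throughout. RefSeq promoters (build GRCm38.p6) were at hand for 6 of the 10 markers, each spanning 250 bases before the start and 50 after it. The Flt1 window is chr5:147725962-147726261 on the minus strand, and the Eng window is chr2:32646345-32646644 on the plus strand. Both are written 5′ to 3′ along the gene. Capitals mark the ETS core GGAA read on either strand (TTCC on the other), the letters shared by sites of the ETS family, which includes several regulators of endothelial genes.
Flt1: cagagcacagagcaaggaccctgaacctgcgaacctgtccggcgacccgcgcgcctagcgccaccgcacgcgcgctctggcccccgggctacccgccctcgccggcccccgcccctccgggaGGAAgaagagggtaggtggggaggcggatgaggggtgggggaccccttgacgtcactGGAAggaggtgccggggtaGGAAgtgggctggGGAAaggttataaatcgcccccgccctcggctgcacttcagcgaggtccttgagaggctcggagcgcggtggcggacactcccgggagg
Eng: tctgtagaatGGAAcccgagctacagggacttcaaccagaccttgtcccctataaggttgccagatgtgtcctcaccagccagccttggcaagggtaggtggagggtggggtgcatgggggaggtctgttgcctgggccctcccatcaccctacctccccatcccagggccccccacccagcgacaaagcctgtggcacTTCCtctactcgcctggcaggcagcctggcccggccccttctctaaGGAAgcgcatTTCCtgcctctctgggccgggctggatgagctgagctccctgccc
Each window held 4 such cores, and 96.0% of all 32851 RefSeq promoter windows held at least 1. Of the letters tied to the delivered factors, the GATA core (GATA, in 57.9% of all windows) was in neither window. The same held for the T-box site GGTGTG (19.0%), the MEF2 core, CTA and TAG with 4 bases between them (3.69%), and the CArG box bound by SRF (1.63%). The E-box CANNTG (72.3%) had 1 match in the Eng window and none in the Flt1 window. Both strands were searched, and some matches of different motifs may overlap. These letter matches describe the windows only.

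Flt1, a VEGF receptor that binds VEGF tightly and, as a soluble form, keeps it from Kdr, was lower in all 3 TF groups. Its brightest probe set (1451756_at) gave signals of 307, 277 and 341 in TF group 1. TF group 2 gave 256, 376 and 310.3, and TF group 3 gave 284, 292 and 314, against 801, 793 and 808 in the negative control. No TF array reached the lowest control array, and the TF groups overlapped one another. Means were 309 ± 32.0, 314 ± 60.3 and 297 ± 15.3 in TF groups 1, 2 and 3, and 801 ± 7.40 in the negative control (SD, n = 3 each). The log2 change was -1.38 in TF group 1 (adjusted p = 2.70e-05, limma), with a level 2.60-fold higher in the negative control. It was -1.37 in TF group 2 (adjusted p = 2.48e-05, limma; 2.58-fold higher in the negative control) and -1.43 in TF group 3 (adjusted p = 1.96e-05, limma; 2.70-fold higher in the negative control), with an SE of 0.13 throughout. The call held in all 25 alternative settings for each of the 3 TF groups. Between TF groups the log2 difference was 0.01 for TF group 2 over TF group 1 (95% interval -0.28 to 0.31). It was -0.07 for TF group 3 over TF group 2 (-0.36 to 0.23) and -0.05 for TF group 3 over TF group 1 (-0.35 to 0.24).

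The other Flt1 probe sets pointed the same way against the control but did not give the same order among TF groups. Probe set 1419300_at read 179.5, 193 and 174 in TF group 1, 119, 128 and 103 in TF group 2 and, in TF group 3, 158, 168 and 138, against 259, 264 and 242 in the negative control. Each of the TF groups lay wholly below the control, and TF group 2 lay below both other TF groups. The log2 change was -0.48 in TF group 1 (SE 0.10, adjusted p = 0.00375, limma), short of the fold threshold and thus not called. It was -1.14 in TF group 2 (adjusted p = 1.53e-05, limma) and -0.72 in TF group 3 (adjusted p = 0.000316, limma), both called. TF group 2 was lower than TF group 1 by a log2 difference of -0.65 (adjusted p = 0.00469, limma), a call lost once arrays were set to equal poly-A spike signal, or spike-scaled (-0.49, adjusted p = 0.433, limma), and lost by fold with an offset of 50 added before log2 (-0.48) or without TF group 2 replicate 3 (-0.56). TF group 3 over TF group 2 gave 0.41 (adjusted p = 0.0360, limma), again short of the fold threshold.

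The third Flt1 probe set, 1454037_a_at, was dimmer and more scattered. It read 80.6, 47.7 and 94.3 in TF group 1, 22.6, 70.2 and 41.5 in TF group 2 and, in TF group 3, 77.0, 82.5 and 41.9, against 140.1, 115 and 80.1 in the negative control. TF group 2 was called lower (log2 change -1.43, SE 0.45, adjusted p = 0.0298, limma). That call did not hold without TF group 2 replicate 1 or 3 or without negative control replicate 1 or 2, where the log2 change ran from -1.45 to -1.01. TF group 1 (-0.61, adjusted p = 0.332) and TF group 3 (-0.76, adjusted p = 0.225) were not called by limma. Over the 12 arrays the log2 signals of the 3 Flt1 probe sets correlated with r = 0.77, 0.65 and 0.76, which includes the shared difference between TF and control arrays. The annotation used here does not tell which Flt1 transcripts each probe set reads.

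**Figure D2:**
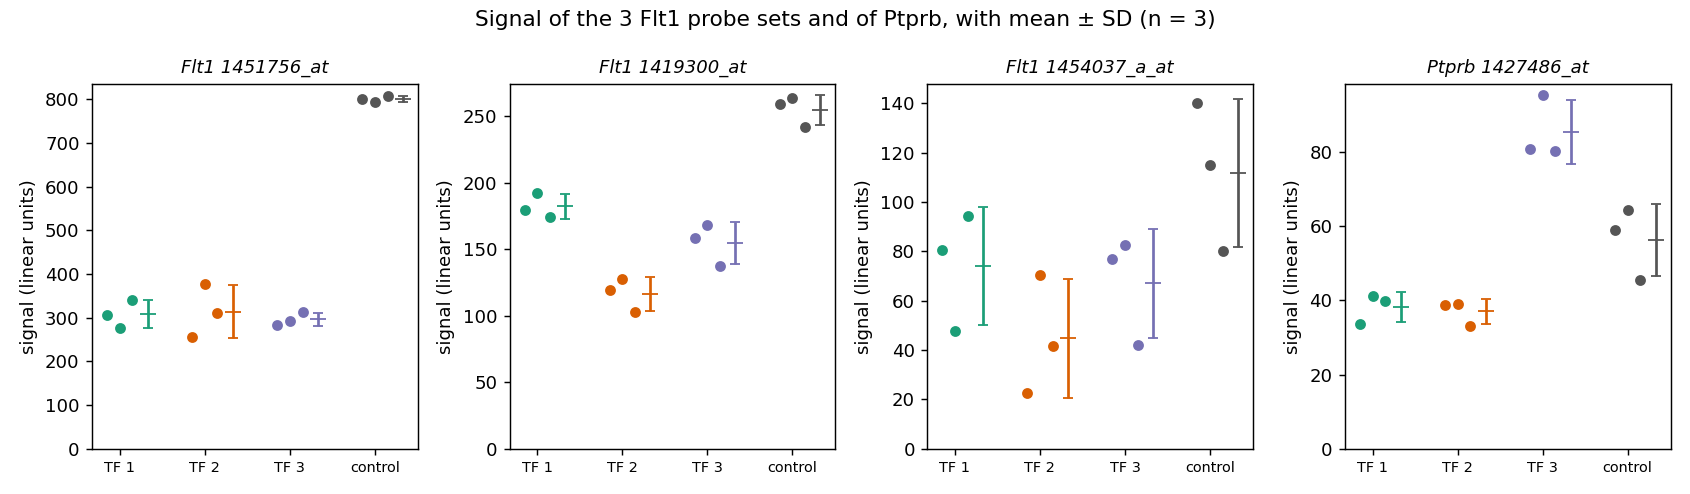
Deposited signal (linear units, axes from 0) of the 3 Flt1 probe sets and of the Ptprb probe set, with 3 points per group and the mean ± SD beside them. For 1451756_at the TF groups averaged 309, 314 and 297 against 801 in the negative control, while Ptprb averaged 85.3 in TF group 3 against 56.3 in the negative control.

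The genes whose log2 signal followed Flt1 most closely over the 12 arrays, among 7119 genes with a mean log2 signal of at least 7, were Psat1 (r = 0.987), Usp10 (r = 0.986) and Pdia5 (r = 0.983). Psat1, an enzyme of serine synthesis, averaged 1513, 1492 and 1459 in TF groups 1, 2 and 3, against 2843 in the negative control. Usp10, a deubiquitinase, averaged 438, 452 and 442 in TF groups 1, 2 and 3, against 775 in the negative control. Pdia5, a protein disulfide isomerase, averaged 1022, 974 and 962 in TF groups 1, 2 and 3, against 2099.5 in the negative control. Each of these, like Flt1, had 1 level in the TF groups and another in the control, and the coefficients include that step.

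Kdr, the main signalling receptor for VEGF on endothelial cells, was not called in any comparison. Its signals were 25.6, 23.0 and 19.9 in TF group 1, 65.4, 31.8 and 49.2 in TF group 2 and, in TF group 3, 34.5, 6.74 and 41.8, against 51.6, 30.8 and 52.6 in the negative control. TF group 1 lay wholly below the control and below the floor, while the other groups overlapped the control. The log2 changes were -0.94 in TF group 1 (adjusted p = 0.269), 0.10 in TF group 2 (adjusted p = 0.923) and -1.03 in TF group 3 (adjusted p = 0.225) by limma. With an SE of 0.61, the 95% intervals reached from -2.33 to 0.44 in TF group 1, from -1.29 to 1.48 in TF group 2 and from -2.42 to 0.35 in TF group 3. Without TF group 3 replicate 2, the array at 6.74, the TF group 1 change passed the test (-0.94, adjusted p = 0.0334, limma) and the TF group 3 change was -0.20. Kdr was also called lower in TF group 1 with only the groups compared in the fit (adjusted p = 0.0374, limma). After scaling to the poly-A spikes it was called lower in TF group 1 (-1.84, adjusted p = 0.0162, limma) and TF group 3 (-1.83, adjusted p = 0.0190, limma).

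Tek, the angiopoietin receptor also known as Tie2, was the only marker called higher in TF group 1. It read 44.6, 47.0 and 44.6 in TF group 1, 40.4, 30.3 and 40.7 in TF group 2 and, in TF group 3, 32.6, 24.0 and 34.0, against 23.0, 22.0 and 41.9 in the negative control. TF group 1 lay above the control, although negative control replicate 3 came close. The log2 change of 0.71 (SE 0.25, adjusted p = 0.0444, limma) amounted to at least 1.42-fold over the floor of 32, since the control mean lay below it. The call held in 9 of 25 alternative settings, and with the arrays scaled to the poly-A spikes the change was -0.19 (adjusted p = 0.603, limma). TF group 2 (0.41, adjusted p = 0.227) and TF group 3 (0.11, adjusted p = 0.775) were not called by limma. Without negative control replicate 3, TF group 2 gave 0.71 (adjusted p = 0.0122, limma). Its partner Tie1, an orphan receptor of the same family, ranged from 2.16 to 22.3 over all arrays and was not called in any group. For Tie1 in TF group 3 the signals were 2.17, 5.04 and 2.86, against 22.3, 2.45 and 21.9 in the negative control, all below the floor. That comparison was called lower without negative control replicate 2 (log2 change -2.81, adjusted p = 0.0202, limma) and on spike-scaled arrays (-2.54, adjusted p = 0.0238, limma), where both sides still lie in the range of the bacterial probe sets or under it.

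Ptprb, the vascular endothelial phosphatase, separated TF group 3 from the other TF groups. Its signals were 33.5, 41.1 and 39.7 in TF group 1, 38.8, 39.0 and 33.2 in TF group 2 and, in TF group 3, 80.7, 95.2 and 80.0, against 59.0, 64.3 and 45.6 in the negative control. The arrays of TF group 3 lay above all others, and those of TF groups 1 and 2 lay below the control. TF group 3 exceeded TF group 2 by a log2 difference of 1.20 (SE 0.14, adjusted p = 0.00105, limma; 2.30-fold), the only marker called in a comparison in which 4.03% of all genes were called. It exceeded TF group 1 by 1.16 (adjusted p = 0.000752, limma; 2.24-fold), again the only marker called, against 6.31% of all genes. Both differences held in all 25 alternative settings. In TF group 2 over TF group 1 no marker was called by limma, and none reached an unadjusted p of 0.05 (3.87% of all genes were called). Ptprb differed there by -0.04 (95% interval -0.36 to 0.28).

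Against the control the position of Ptprb was less firm. TF group 3 was higher by 0.61 (adjusted p = 0.00717, limma; 1.53-fold), close to the fold threshold. The fold threshold was missed without TF group 3 replicate 2 (0.53) or without negative control replicate 3 (0.47). It was also missed after median centring (0.50), after quantile normalization (0.46) and with an offset of 50 (0.35). With an intensity trend the adjusted p was 0.0520 (limma). The change was -0.18 (adjusted p = 0.515, limma) with the arrays scaled to the poly-A spikes. TF group 2 was lower by a log2 change of -0.59 (adjusted p = 0.00801, limma; 1.51-fold higher in the negative control). That call was missed by fold without TF group 2 replicate 3 (-0.52) or without negative control replicate 1 (-0.55) or 2 (-0.49). The same held with the offset (-0.29) and with array weights (-0.54), and the intensity trend gave an adjusted p of 0.0580 (limma). TF group 1 changed by -0.55 (adjusted p = 0.0120, limma), short of the fold threshold and not called. It was called without TF group 1 replicate 2 (-0.61) or 3 (-0.59) and without negative control replicate 3 (-0.70). Median centring (-0.68) and quantile normalization (-0.66) also gave a call there.

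**Figure D3:**
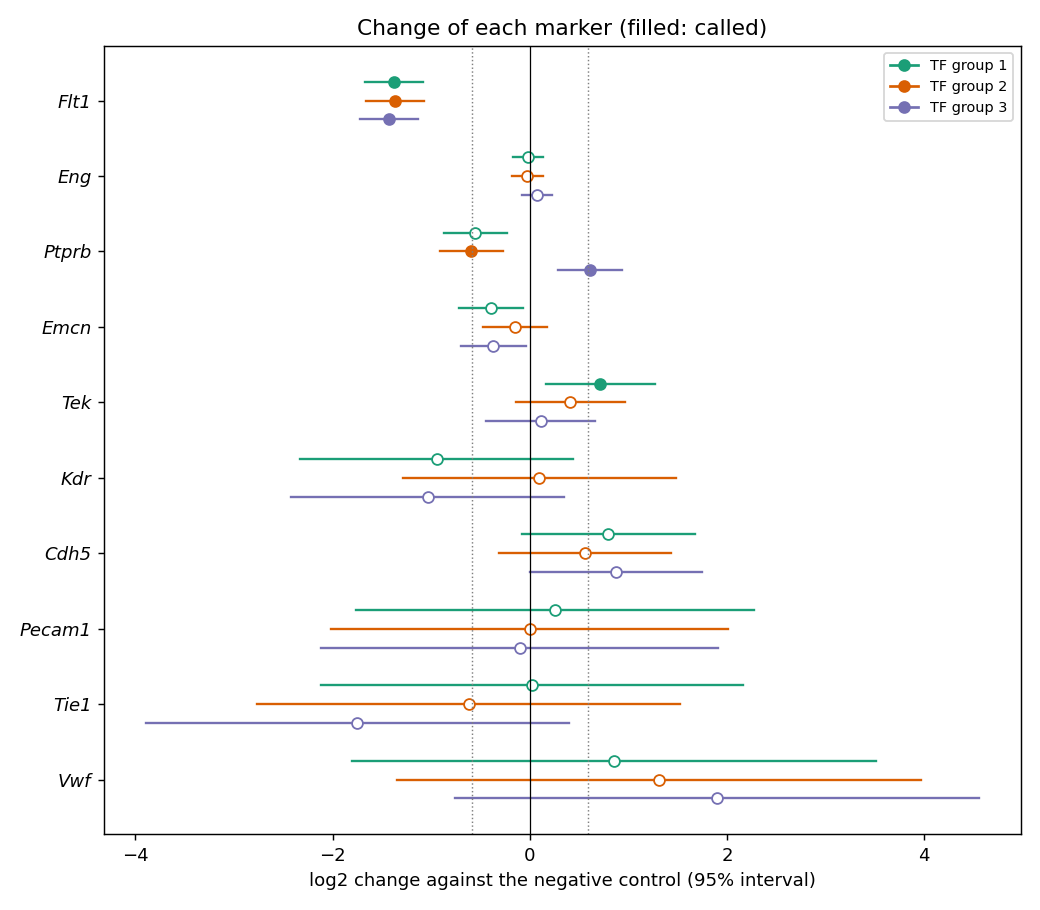
Log2 change of each marker against the negative control, with 95% intervals from limma (12 arrays), for TF groups 1, 2 and 3. Filled points were called and dotted lines mark a fold of 1.5 in either direction; Flt1 lay at -1.38, -1.37 and -1.43, Ptprb at -0.55, -0.59 and 0.61, and the intervals of Pecam1, Tie1 and Vwf spanned more than those of the brighter markers.

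Eng (endoglin), an accessory receptor for BMP and TGF-beta ligands that fibroblasts and other mesenchymal cells also carry, was close to level across groups on the deposited scale. Probe set 1417271_a_at read 156, 147 and 144 in TF group 1, 142, 151 and 149.8 in TF group 2 and, in TF group 3, 165, 147 and 163, against 157, 154 and 142 in the negative control. All 4 groups overlapped. The log2 changes were -0.02 (95% interval -0.17 to 0.14), -0.03 (-0.18 to 0.13) and 0.07 (-0.08 to 0.23) in TF groups 1, 2 and 3. On arrays scaled to the poly-A spikes, which lowered the median of all probe sets to -0.84, -0.69 and -0.74, Eng instead gave -0.92, -0.76 and -0.72. All 3 were called lower on that scale (adjusted p = 0.00249, 0.00798 and 0.00996, limma). The dimmer Eng probe set 1432176_a_at read between 26.5 and 61.6 and was not called on the deposited scale. On spike-scaled arrays it was called lower in TF group 1 (-0.97, adjusted p = 0.0331, limma). Its correlation with the brighter one was r = -0.14 over the 12 arrays.

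Emcn (endomucin), a sialomucin of venous and capillary endothelium, lay above the floor everywhere and was not called. It read 42.5, 47.4 and 36.7 in TF group 1, 47.0, 57.4 and 46.1 in TF group 2 and, in TF group 3, 50.01, 40.1 and 39.1, against 63.2, 52.7 and 50.8 in the negative control. TF groups 1 and 3 lay below the control, and TF group 2 overlapped it. The log2 changes were -0.40 (adjusted p = 0.0543), -0.15 (adjusted p = 0.472) and -0.37 (adjusted p = 0.0712) in TF groups 1, 2 and 3 by limma. Scaled to the poly-A spikes they were -1.30, -0.89 and -1.16, all called.

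Cdh5 (VE-cadherin), the adhesion molecule of endothelial junctions, had a pair of probe sets that did not move together (r = -0.24 over the 12 arrays). Probe set 1433956_at read 36.7, 31.2 and 44.2 in TF group 1, 29.8, 33.8 and 30.5 in TF group 2 and, in TF group 3, 39.7, 38.1 and 39.2, against 19.7, 11.3 and 43.5 in the negative control. The changes of 0.80, 0.56 and 0.87 (SE 0.39) were not called, with adjusted p of 0.141, 0.300 and 0.108 in TF groups 1, 2 and 3 (limma). Negative control replicate 3 stood apart from its group. Without it the changes were 1.31, 1.07 and 1.39 (adjusted p = 0.00199, 0.00541 and 0.00145, limma), all called, with the control below the floor on both arrays left. Other settings turned the direction. On spike-scaled arrays the TF group 1 change was -0.10. With both Cdh5 probe sets averaged, the change was -0.70 in TF group 2 and -0.14 in TF group 3. Probe set 1422047_at read between 5.28 and 46.6, with changes of -0.23, -1.95 and -1.15, and no call. TF group 2 was called lower at that probe set without TF group 2 replicate 3 (-2.75, adjusted p = 0.0118, limma) or without TF group 3 replicate 1 (-1.95, adjusted p = 0.0280, limma), on spike-scaled arrays (-2.69, adjusted p = 0.0170, limma) and with an intensity trend (adjusted p = 0.0363, limma).

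Pecam1, an adhesion molecule of endothelium, platelets and leukocytes, and Vwf, the clotting glycoprotein that endothelial cells store, gave readings in the range of the bacterial probe sets or below it, apart from 1 array. Pecam1 read 3.93, 29.8 and 7.53 in TF group 1, 6.88, 14.1 and 5.36 in TF group 2 and, in TF group 3, 19.1, 5.18 and 4.22, against 20.2, 5.68 and 4.53 in the negative control. Its 95% interval in TF group 1 reached from -1.76 to 2.27 on the log2 scale. Vwf read between 0.721 and 11.8 on the TF arrays and between 0.917 and 1.13 on the control arrays, and its log2 changes of 0.86, 1.31 and 1.90 had an SE of 1.18. Below a mean log2 signal of 5 the median SD between replicates was 0.90 over all probe sets, against 0.14 for probe sets between 7 and 9. Neither gene was called in the fit of all 12 arrays. With only the groups compared in the fit, Vwf in TF group 3 was called higher (log2 change 1.90, adjusted p = 0.0433, limma), with every array of both groups below the floor.

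The wider endothelial programme was read from 3 further lists, of which 76 of 81 genes were measured. They covered transcription factors, ligands and receptors, and surface proteins and enzymes. Of 24 transcription factors, 2 were called higher and 5 lower in TF group 1, 1 higher and 4 lower in TF group 2, and 1 higher and 4 lower in TF group 3. Over all genes 15.1% were called higher and 8.93% lower in TF group 1. In TF group 2 the shares were 15.3% higher and 10.1% lower, and in TF group 3 they were 14.7% higher and 9.84% lower. Lmo2, an adaptor of the blood and endothelial progenitor programme, read 88.8, 99.5 and 111 in TF group 3, against 11.6, 20.3 and 22.3 in the negative control. Since the control lay below the floor, the difference was at least 1.08-fold, 1.62-fold and 3.12-fold for TF groups 1, 2 and 3 (adjusted p = 0.0298, 0.00342 and 0.000142, limma).

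Several factors of the same list were lower in all TF groups. Ets1, an ETS factor of endothelial and other mesodermal cells, read 416, 351 and 405 in TF group 1, 469.9, 427 and 478 in TF group 2 and, in TF group 3, 434, 420.0 and 438, against 964, 783 and 815 in the negative control. No TF array overlapped the control, and the log2 changes were -1.13, -0.89 and -0.98. Hey2, a Notch target of arterial cells, changed by -1.06, -0.80 and -1.16, and Klf2, a factor induced by flow, by -0.59, -0.97 and -0.81. Etv6 was lower in TF group 1 (-0.60) and Lyl1 in TF group 3 (-0.79, at least 1.68-fold, since the TF group 3 mean lay just below the floor). Foxc2 was lower in TF groups 1 and 2 (-0.60 and -0.72) and missed the fold threshold in TF group 3 (-0.49). Ets2 was called higher in TF group 1 (1.14), with 0.26 and 0.41 in TF groups 2 and 3, and it differed from TF group 1 in both (-0.88 in TF group 2 and -0.73 in TF group 3, adjusted p = 0.000156 and 0.000263, limma). Of the ETS factors most tied to endothelium, singled out after their values were seen, none was called. Erg read at most 72.9, Etv2 ran from 6.93 to 53.9 and Fli1 from 79.7 to 153 over the 12 arrays.

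Among 23 ligands and receptors, 1 was called higher and 2 lower in TF group 1. TF group 2 had 4 higher and 3 lower, and TF group 3 had 3 higher and 5 lower. Over all genes, 14.7% to 15.3% were called higher and 8.93% to 10.1% lower, depending on the TF group. Pgf, a ligand that binds Flt1 and not Kdr, read 93.8, 45.9 and 99.5 in TF group 1, 246, 154 and 263 in TF group 2 and, in TF group 3, 308, 215 and 211, against 16.7, 54.2 and 35.6 in the negative control. It was higher in TF group 2 (log2 change 2.76, adjusted p = 0.000857, limma) and TF group 3 (2.92, adjusted p = 0.000625, limma), and TF group 1 gave 1.24 (adjusted p = 0.0544, limma). Angpt4, a ligand of Tek, read 42.5, 55.7 and 47.1 in TF group 1, 416, 305 and 373 in TF group 2 and, in TF group 3, 201, 192 and 201, against 31.7, 57.3 and 36.0 in the negative control. TF group 1 overlapped the control, while TF group 2 exceeded TF group 1 by 2.91 (adjusted p = 6.52e-05, limma) and TF group 3 differed from TF group 2 by -0.87 (adjusted p = 0.0350, limma). Angptl4, a secreted inhibitor of lipoprotein lipase, was higher by 1.07, 2.20 and 1.86 in TF groups 1, 2 and 3. Dll4, a Notch ligand of endothelial tip cells, was called higher in TF group 2 (0.69). That change was -0.051 on arrays scaled to the poly-A spikes and -0.16 with its probe sets averaged.

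Other genes of this list were lower. Flt4, the receptor for VEGF-C, read 122, 99.9 and 126 in TF group 1, 94.0, 102 and 85.2 in TF group 2 and, in TF group 3, 160.2, 151 and 167, against 277, 257 and 292 in the negative control. It was lower in all TF groups (-1.25, -1.56 and -0.79), and TF group 3 exceeded TF group 2 by 0.77 (adjusted p = 0.00224, limma). Nrp1, a coreceptor for VEGF, was lower in TF groups 2 and 3 (-1.03 and -0.77), with -0.41 in TF group 1. The ligand Apln was also lower in TF groups 2 and 3 (-0.91 and -1.06), with -0.58 in TF group 1, and the BMP receptor Acvrl1 in TF group 3 (-0.89). The remaining calls were the ligands Vegfc, lower in TF group 1 (-0.60), and Angpt2, lower in TF group 3 (-0.72).

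The next counts also stand beside shares over all genes of 14.7% to 15.3% higher and 8.93% to 10.1% lower. Of 29 surface proteins and enzymes, 6 were called higher and 1 lower in TF group 1. TF group 2 had 7 higher and 4 lower, and TF group 3 had 9 higher and 5 lower. Among the 7 was Icam2, which lay below the floor on all 12 arrays (20.2, 5.81 and 7.35 in TF group 2, against 5.65, 3.20 and 3.17 in the negative control), so its call has no readable fold. The widest change in the list was in Cd93, a C-type lectin receptor of endothelial and myeloid cells. It read 119.8, 97.7 and 115 in TF group 1, 207, 207 and 198 in TF group 2 and, in TF group 3, 1429, 1386 and 1386, against 30.5, 33.9 and 44.1 in the negative control. The groups did not overlap. The log2 change was 1.63, 2.51 and 5.29 in TF groups 1, 2 and 3 (SE 0.13, adjusted p = 8.34e-06, 4.53e-07 and 1.17e-08, limma). TF group 3 exceeded TF group 2 by 2.78 (6.87-fold, adjusted p = 6.24e-06, limma).

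Ace, Icam1 and Jam2 were higher in all TF groups. Each had its largest change in TF group 2, but only Ace was called higher there than in TF group 1. Ace, the angiotensin-converting enzyme, changed by 1.22, 2.64 and 1.72. Icam1, an adhesion molecule for leukocytes, changed by 2.49, 2.60 and 1.85, and TF group 3 differed from TF group 2 by -0.75 (adjusted p = 0.0150, limma). Jam2, a junctional adhesion molecule, changed by 2.34, 2.39 and 1.98. Clec14a, a lectin of vessel endothelium, read 153, 133 and 163 in TF group 1, 50.6, 87.3 and 51.6 in TF group 2 and, in TF group 3, 44.5, 44.4 and 34.7, against 146, 135 and 106 in the negative control. It was lower in TF group 2 (-1.06) and TF group 3 (-1.64), and TF group 1 (0.22) was not called. Tm4sf1 was lower in all TF groups (-0.65, -0.89 and -1.07), and Adgrl4 (-0.90 and -1.03) and Plvap (-1.01 and -0.66) in TF groups 2 and 3. The Plvap mean of TF group 2 lay below the floor, which makes that difference at least 1.96-fold. Rasip1 read 22.0, 24.5 and 14.7 in TF group 3, against 62.6, 34.6 and 46.3 in the negative control. It was called lower there (adjusted p = 0.00378, limma), but all TF group 3 arrays lay below the floor, and counted against the floor the difference fell just short of the fold threshold.

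A pair of genes from the same list, chosen after their values were seen, differed in opposite directions between TF groups 1 and 3. Cd34, a sialomucin of progenitors and endothelium that some fibroblasts also carry, read 245, 272 and 218 in TF group 1, 176, 160.4 and 178 in TF group 2 and, in TF group 3, 60.0, 102 and 82.2, against 55.0, 61.9 and 58.3 in the negative control. TF group 3 differed from TF group 1 by -1.61 (adjusted p = 0.000324, limma). Mcam, an adhesion molecule of endothelium, pericytes and smooth muscle, read 365, 384 and 344 in TF group 1, 447, 423 and 422 in TF group 2 and, in TF group 3, 1039, 1088 and 955, against 368, 502 and 377 in the negative control. TF group 3 exceeded TF group 1 by 1.49 (adjusted p = 5.72e-05, limma). The junction protein Cldn5 (15.7 to 53.1 over the 12 arrays) and endothelial nitric oxide synthase Nos3 (38.3 to 83.7), singled out likewise, were not called in any TF group. The leukocyte adhesion molecule Vcam1 (0.96) and the protein C receptor Procr (0.92) were higher in TF group 3, as was thrombomodulin (Thbd, 0.60), which gave -0.19 on arrays scaled to the poly-A spikes.

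**Figure D4:**
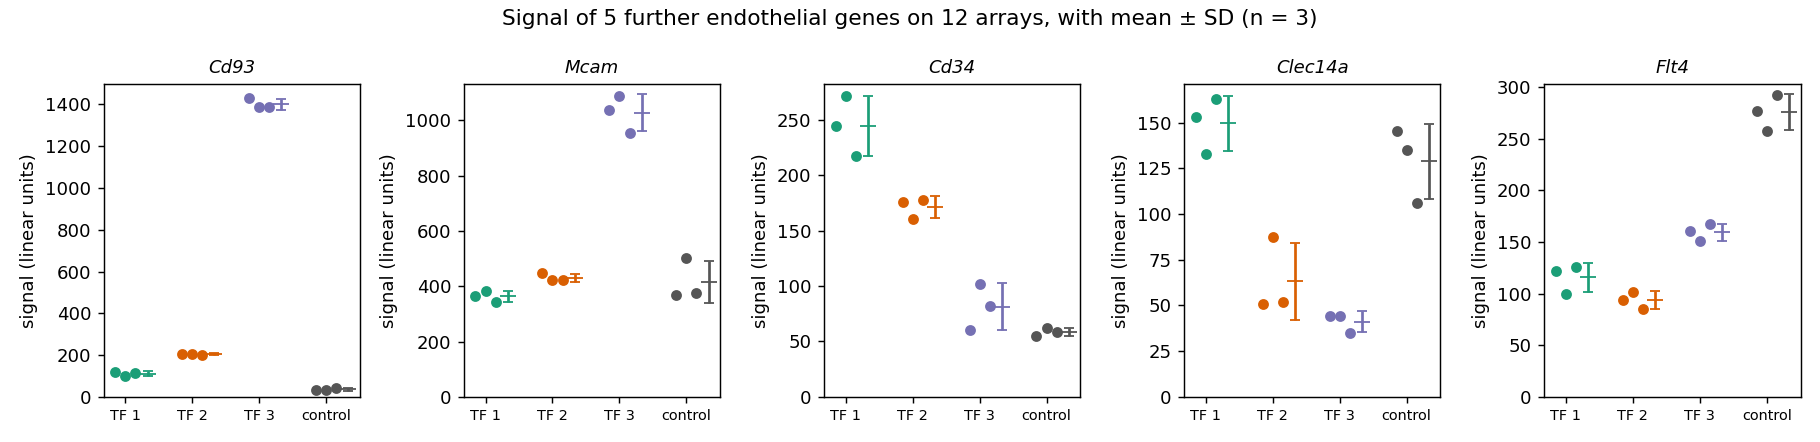
Deposited signal (linear units, axes from 0) of Cd93, Mcam, Cd34, Clec14a and Flt4, with 3 points per group and the mean ± SD beside them. Cd93 and Mcam stood highest in TF group 3 (1386 to 1429 and 955 to 1088), Cd34 in TF group 1 (218 to 272) and Flt4 in the negative control (257 to 292).

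Markers of other cell types were read from 4 lists beside these. The shares over all genes were again 14.7% to 15.3% called higher and 8.93% to 10.1% called lower. Of 9 macrophage and leukocyte genes, 1 was called higher (Laptm5, 0.99) and 1 lower (Tyrobp, -3.20, at least 1.01-fold above the floor in the negative control) in TF group 1, and none in TF groups 2 and 3. Their summed signal ran from 625 to 649 in TF group 1, 674 to 723 in TF group 2 and 639 to 782 in TF group 3, against 567 to 697 in the negative control. The pan-leukocyte marker Ptprc read between 17.7 and 41.8. Of 5 platelet genes, Ppbp alone was called, lower in each TF group (-1.99, -3.08 and -3.42), and Gp9 lay below the floor on all arrays. The summed platelet signal was 397 to 540 in TF group 1 and 284 to 376 in TF group 2. It was 308 to 355 in TF group 3, against 902 to 1197 in the negative control. Ppbp averaged 215, 102 and 80.2 in TF groups 1, 2 and 3, against 849 in the negative control.

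Of 7 pericyte and mural genes, 2 were called higher and 1 lower in TF group 1. In each of TF groups 2 and 3, 3 were higher and 2 lower. For these and the fibroblast genes below, the all-gene shares were 14.7% to 15.3% higher and 8.93% to 10.1% lower. Rgs5, a regulator of G protein signalling typical of pericytes, rose by 1.19, 1.67 and 2.27, and the receptor Notch3 by 1.72, 2.24 and 1.58. Desmin (Des) was higher in TF group 3 (1.08) and in TF group 2 (0.68), where scaling to the poly-A spikes gave -0.062. The proteoglycan Cspg4 was lower in all TF groups (-0.60, -1.05 and -0.75) and Pdgfrb in TF groups 2 and 3 (-0.67 and -0.59). The summed mural signal was 3470 to 3897 in TF group 1, 3464 to 3646 in TF group 2 and 3486 to 3763 in TF group 3, against 3869 to 4250.5 in the negative control. Of 10 fibroblast genes, 2 were called higher and 1 lower in TF group 1, 1 higher and 2 lower in TF group 2, and 3 lower in TF group 3. Decorin (Dcn) rose in TF groups 1 and 2 (1.09 and 0.77), and lumican (Lum) was higher in TF group 1 (1.80) and lower in TF group 3 (-1.87). S100a4 fell in all TF groups (-0.60, -0.94 and -1.30) and Pdgfra in TF groups 2 and 3 (-0.89 and -1.29). The summed fibroblast signal was 80198 to 86975 in TF group 1, 64276 to 67184 in TF group 2 and 62456 to 64553 in TF group 3, against 68736 to 72693 in the negative control. The part of these cell types in the endothelial results was not tested.

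**Figure D5:**
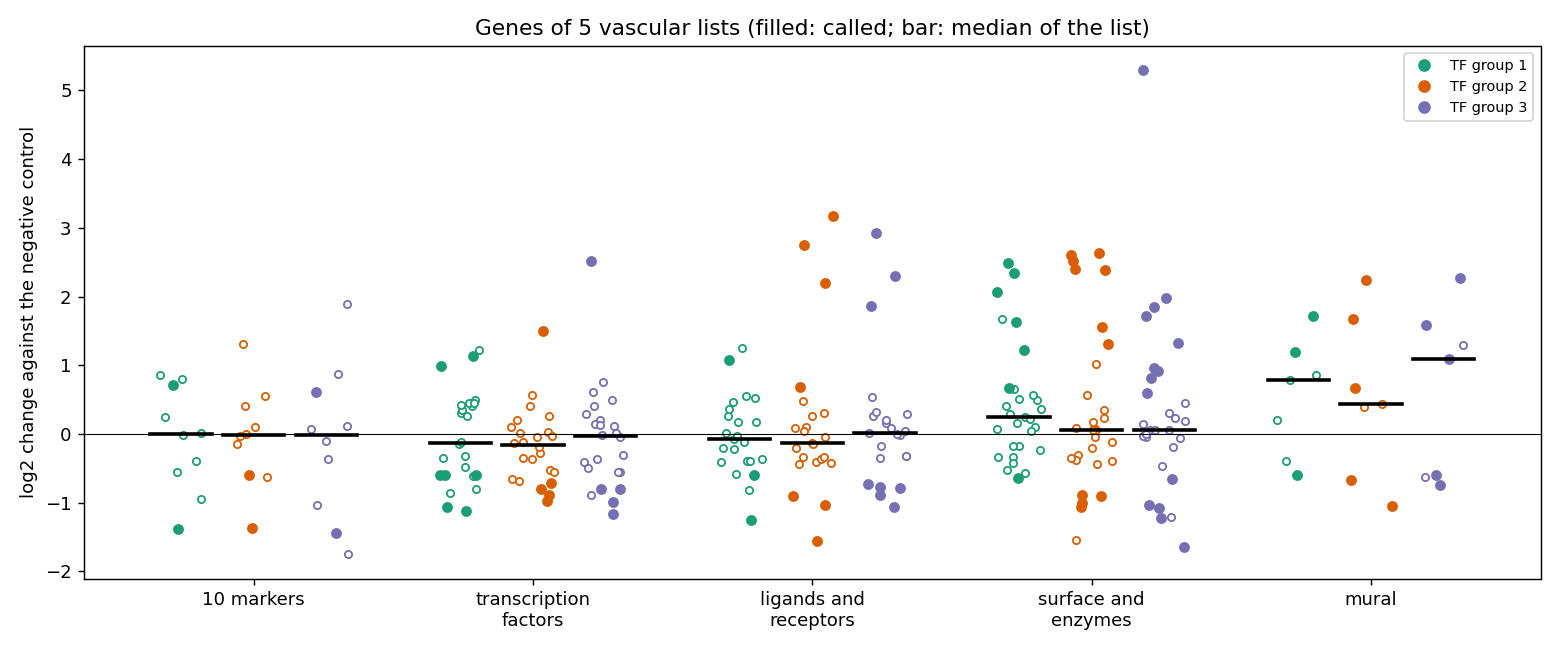
Log2 change of TF over control arrays for each gene of the 10 markers, 24 transcription factors, 23 ligands and receptors, 29 surface proteins and enzymes and 7 mural genes, in TF groups 1, 2 and 3. Filled points were called and black bars are the medians of each list; the point at 5.29 is Cd93 in TF group 3.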

How the data were processed

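Arrays (Affymetrix Mouse Genome 430A 2.0) of 12 cultures were analysed. The deposited intensity values are linear. Partek and RMA are named by the authors, but RMA yields log2 values, and the deposited intensities have a trimmed mean of about 500 on each array, so the method behind them is not given in the sources used here. The number of arrays limits precision. Log2 values of 22626 probe sets (64 control probe sets left out of 22690) were fitted in limma 3.58.1 (R 4.3.3) with 1 mean per group, and p-values were adjusted by Benjamini-Hochberg. The probe set with the highest mean stood for a gene; 20380 probe sets had 1 symbol, 691 several and 1555 none. Folds against means below 32 were computed against 32. The test was checked on simulated data. Same-numbered replicates were checked for pairing (18 pairs, r from -0.02 to 0.05), and the numbers do not pair samples. The labels say biological replicates without naming separate embryos, so p-values measure the spread between these cultures. Members and lists were chosen with earlier results of these data known. Named were all markers, up to 4 genes per list and direction called in most TF groups, the 3 genes most like Flt1 and genes that small counts needed. Alternatives covered scaling, offset, filter, variance model, block, threshold, probe set choice and leaving out each array. Figures were drawn with matplotlib.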

Additional observations from a re-analysis of the deposited data

Results flagged for a closer look

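The response of Ptprb against the negative control differed between TF groups. It was larger in TF group 3 than in TF group 2 by 1.20 on the log2 scale (adjusted p = 0.00105, limma, 3 arrays per group), with 3 of 3 TF group 3 arrays above the control and 3 of 3 TF group 2 arrays below it. It was larger in TF group 3 than in TF group 1 by 1.16 (adjusted p = 0.000752, limma), with 3 of 3 TF group 1 arrays below the control. No other marker differed between TF groups in this way at its brightest probe set. Single arrays were not screened for distance from their group, since groups of 3 are too small for that test.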

How the results depend on the processing

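Of the 2058 values computed for the markers' probe sets under alternatives, 1887 kept their direction and side of the threshold or moved within the replicate spread. The count of markers called depended on the setting. In TF group 1 against the control it was 2 on arrays centred on their median (0 higher, 2 lower), 3 after quantile normalization, 5 scaled to the poly-A spikes (all lower), 1 with an offset of 50, 1 with an intensity trend, 1 with array weights, 1 in the unmoderated model, 2 with only the groups compared (0 higher, 2 lower) and 3 with no fold threshold. In TF group 2 it was 4 scaled to the spikes and 1 with the offset, trend or array weights. In TF group 3 it was 1 after median centring, 1 after quantile normalization, 5 scaled to the spikes, 1 with the offset, 1 with the trend and 3 with only the groups compared. TF group 3 against TF group 1 gave 2 by the unadjusted p. Against the control, 56.9%, 47.8% and 50.6% of all probe sets were called on spike-scaled arrays in TF groups 1, 2 and 3. The 5, 4 and 5 markers called there lay near these shares. With no fold threshold the shares were 39.8%, 40.3% and 39.8%, and with the offset 16.3%, 17.5% and 16.7%. The other settings named here gave 21.2% to 23.9% against the control. Leaving out single arrays gave 1 to 4 called markers in TF group 1, 1 to 4 in TF group 2, 1 to 3 in TF group 3 and 1 to 2 in TF group 3 against TF group 1. In those fits 21.6% to 23.7% of all probe sets were called against the control. The marker counts for TF group 2 against TF group 1 and TF group 3 against TF group 2 did not move. The replicate number as a block left the counts at 2, 2 and 2 against the control and ended the TF group 2 call of Flt1 probe set 1454037_a_at (-1.43, adjusted p = 0.0546, limma); the samples share only a number.

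Scaling to the poly-A spikes lowers every TF signal relative to the control. It turned Tek in TF group 1 (-0.19), Ptprb (-0.18) and Eng (-0.72) in TF group 3, Csf1r (-0.68), Dcn (-0.77), Ephb4 (-0.74) and Thbd (-0.19) in TF group 3, Des (-0.062), Dll4 (-0.051) and Mcam (-0.67) in TF group 2, and Dll4 (-0.72), Egfl7 (-0.23) and Pdgfra (-0.81) in TF group 1. Of these, Tek, Ptprb, Thbd, Des, Egfl7 and the TF group 2 change of Dll4 had been called higher on the deposited scale. The others had not been called there. Some changes called on neither scale also turned on spike-scaled arrays. Among them were Cdh5 at 1433956_at in TF group 1 (-0.10) and Tek in TF groups 2 (-0.33) and 3 (-0.68). Averaging probe sets turned Dll4 (-0.16) in TF group 2. Laptm5 in TF group 2 gave 0.85 with its probe sets averaged. Its brightest probe set was near level there (mean 88.4, against 86.8 in the negative control) and not called. Averaging also turned Cdh5 in TF groups 2 (-0.70) and 3 (-0.14), which was not called. The median over all probe sets moved to -0.07, -0.06 and -0.06 after median centring in TF groups 1, 2 and 3, against 0.06, 0.05 and 0.05 as deposited. The share of calls that were higher was then 45.7%, 47.6% and 46.7%, against 60.1%, 57.9% and 59.2% as deposited, and 4.30%, 7.58% and 6.19% scaled to the spikes. Other causes of these moves were not tested. Dim signals limit Pecam1, Tie1, Vwf, Kdr, Cdh5 and Tek.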
